A study of Mus musculus with 6 samples.

Results

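Il10 and a small set of transcription factors tied to its expression in T cells were described on 6 Affymetrix arrays of mouse CD4 T cells, 1 array for each of 2 genotypes in each of 3 cultures. The genes were Il10, Maf, Prdm1 (which encodes Blimp-1), Zbtb32 and Nfil3, and their members were all probe sets that the platform annotation gives to exactly 1 of these symbols. That rule found all 5 of the genes among the 18193 on the array, with 11 of its 45101 probe sets: 1 for Il10, 6 for Maf, 1 for Prdm1, 2 for Zbtb32 and 1 for Nfil3. The cells came from the spleens of C57BL/6 mice and were purified as naive CD4 T cells (CD44 low, CD62L high). The groups were Ezh2 KO unpolarized, Ezh2 KO Th1, Ezh2 KO Th2, wild type unpolarized, wild type Th1 and wild type Th2. All 6 cultures received plate-bound antibody to TCRβ at 10 µg/ml, antibody to CD28 at 1 µg/ml and IL-2 at 15 ng/ml, for 2 days with the antibodies to TCRβ and CD28 and then 3 days without them. To this, Th1 cultures added IL-12 at 1 ng/ml and anti-IL-4. Th2 cultures added IL-4 at 10 ng/ml and anti-IFN-γ, and the unpolarized ones added anti-IL-4 together with anti-IFN-γ but no polarizing cytokine. The cytokines stayed in the medium throughout. Neither the age of the mice nor the way Ezh2 was deleted is in the labels, and nothing there ties the arrays of a genotype to different animals. The p-values therefore cover no more than the variation among 6 arrays, which may be technical.

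IL-10 is a cytokine that restrains inflammation, and it is made by several kinds of helper T cells late in their response, Th2 cells and the IL-10-secreting type 1 regulatory (Tr1) cells among them. Maf (c-Maf) is a basic leucine zipper factor that binds the Il10 gene and the Il4 promoter. Blimp-1 is a zinc finger repressor known for driving plasma cell formation and for terminal differentiation and IL-10 production in T cells. Nfil3 (E4BP4) is a basic leucine zipper factor needed for IL-10 in Th1 and Th2 cells, and Zbtb32 (also called Rog or PLZP) is a BTB zinc finger factor of activated T cells that represses Gata3 activity and T cell activation. Ezh2 is the methyltransferase of Polycomb repressive complex 2, which marks silent genes with methylated lysine 27 of histone H3. The study's title names Ezh2 in the differentiation and plasticity of Th1 and Th2 cells, and the genotype comparison bears on whether these genes read differently without it.

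All arrays had the same trimmed mean of 500.003, with medians from 61.3 to 69.1, and the number of arrays limits the precision of every value below. The Ezh2 probe set read 4971, 4876 and 4946 in Ezh2 KO unpolarized, Th1 and Th2 cultures, against 7002, 6553 and 7677 in wild type. It was thus 1.43-fold lower in arrays labelled Ezh2 KO (limma, adjusted p = 0.0437), a call lost with median centring and when every probe set was fitted on its own. The deleted stretch of Ezh2 is not in the labels, and a probe set lying outside it would check nothing. The T cell receptor chains Cd3d, Cd3e and Cd3g read from 1485 to 25699 on the 6 arrays and Cd4 from 300.2 to 548, so the markers of the labelled cell type were present. Cd4 read 433, 300.2 and 315 in Ezh2 KO unpolarized, Th1 and Th2 cultures, against 496, 477 and 548 in wild type. All its Ezh2 KO readings thus lay below all wild type ones, as for 27.5% of all tested genes, and Cd4 did not pass. The CD8 T cell markers read from 78.6 to 152 (Cd8a) and from 263 to 450 (Cd8b1), and neither passed. Cd8b1 was highest in the Ezh2 KO Th2 culture, and the part of CD8 T cells in the values below was not tested. Over the whole array, 8.35% of tested genes were higher in Ezh2 KO and 7.98% lower. Among markers of other cells that can make IL-10 or use Blimp-1, 1 of 4 tested B cell markers was higher in Ezh2 KO and 0 of 4 plasma cell markers. So were 1 of 4 myeloid markers and 0 of 7 regulatory T cell markers, of which 1, Gpr83, was lower. Their summed intensities were 482 to 1195 in Ezh2 KO and 216 to 396 in wild type for 6 B cell markers, and 209 to 614 in Ezh2 KO and 185 to 227 in wild type for 6 plasma cell markers. For 10 myeloid markers they were 425 to 486 in Ezh2 KO and 338 to 511 in wild type. The B cell marker that rose was Ms4a1 (CD20), at 210.1, 189 and 669 in Ezh2 KO unpolarized, Th1 and Th2 cultures, against 83.7, 30.3 and 63.5 in wild type, a call lost with no floor and when every probe set was fitted on its own. The myeloid marker was Mpeg1, at 49.0, 141 and 98.2 in Ezh2 KO, against 8.41, 11.02 and 6.82 in wild type, all at the floor, so that it entered the test only through Ezh2 KO. Its call was lost with the floor at the 40th percentile, where the difference was 1.23 on the log2 scale. The B cell markers Cd79b (136, 102 and 244 in Ezh2 KO, against 109, 60.3 and 160 in wild type) and Cd22 (129.6, 94.8 and 181 in Ezh2 KO, against 73.4, 75.6 and 78.8 in wild type) did not pass. Nor did the plasma cell markers Mzb1, at 332 in Ezh2 KO Th2 against 78.4 in wild type Th2, and Jchain, at 93.6 in Ezh2 KO Th2 against 11.5 in wild type Th2. All 4 had their highest Ezh2 KO reading in the Th2 culture, and Cd79b was highest in Th2 in wild type as well. Blk (73.4) and Iglv1 (69.9), which did not pass, were also highest in Th2 among the Ezh2 KO arrays. The plasma cell marker Derl3, which did not pass either, read 96.7 in Ezh2 KO unpolarized, above 63.5 in Th1 and 71.5 in Th2. Cd79a and Pax5, which define B cells, and the plasma cell markers Sdc1 and Tnfrsf17 gave signals below 64.4, the median of all deposited values and the low-signal limit used here, on each of the 6 arrays, as did the myeloid markers Lyz2, Itgam, Cd14 and S100a8. Other myeloid markers were brighter. Csf1r read from 69.5 to 146 on the 6 arrays, above that limit on each. Adgre1 read 162 in Ezh2 KO Th2 and 230 in wild type Th2, and was under the limit in the Th1 culture of each genotype. Fcgr1 was above the limit only in wild type Th1 (70.9) and wild type Th2 (91.3). Csf1r, Adgre1 and Fcgr1 did not pass. The B and plasma cell sums were highest in the Ezh2 KO Th2 culture, as Il10 was, and their part in the Il10 result was not tested.

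Across the 3 cultures, Il10, Maf, Prdm1 and Zbtb32 were higher in Ezh2 KO than in wild type, and Nfil3 did not pass the test. The test was limma on log2 intensities of 11572 genes, with culture as a block and Benjamini-Hochberg adjustment over all of them, and its threshold was an adjusted p of 0.05. Of all tested genes, 8.35% were called higher and 7.98% lower, 966 and 924 genes, or 863 and 411 after median centring. The 4 calls among the 5 genes stand beside those shares, but the genes were chosen with such results known. Every gene call named here was lost when low genes were not filtered out and when any 1 culture was left out, settings in which 0 genes of the whole array passed. All 3 Ezh2 KO arrays lay above all 3 wild type arrays for these same 4 genes, as they did for 20.1% of all tested genes, and Il10, Maf and Zbtb32 were at least 4-fold higher in each culture, as were 1.06% of all tested genes.

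**Figure D1:**
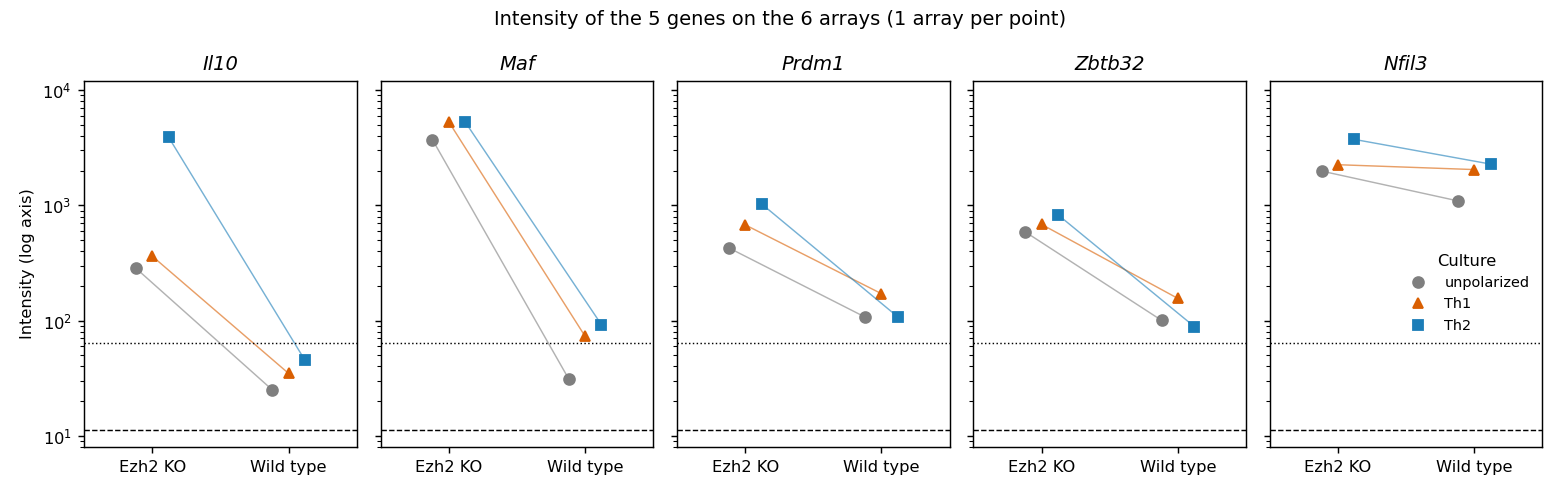
Intensity (log axis) of Il10, Maf, Prdm1, Zbtb32 and Nfil3 on each of the 6 arrays, Ezh2 KO left and wild type right, with a line joining the 2 arrays of a culture. The dotted line is the low-signal limit of 64.4 and the dashed line the floor of 11.3. For Il10, Maf, Prdm1 and Zbtb32 all 3 Ezh2 KO points lie above all 3 wild type points, and the Il10 point of the Ezh2 KO Th2 array (3891) stands far above the other 5, while the Nfil3 points of the genotypes overlap.

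Il10 was bright in Ezh2 KO, with the Th2 culture far above the rest, and dim in wild type. Its single probe set, 1450330_at, read 284, 361 and 3891 in Ezh2 KO unpolarized, Th1 and Th2 cultures, against 25.01, 34.7 and 45.2 in wild type. All wild type readings were under the low-signal limit of 64.4 and above the floor of 11.3 set for the dimmest values, so Il10 entered the test only through its Ezh2 KO arrays and the size of its fold is uncertain. The difference was 11.4-fold in unpolarized, 10.4-fold in Th1 and 86.1-fold in Th2 cultures. Over the 3 cultures it averaged 4.44 ± 1.73 on the log2 scale (SD, n = 3 pairs of arrays), with an adjusted p of 0.0418, and without the Th2 pair it was 3.44. In these bulk cultures, more cells with Il10 RNA and more Il10 RNA per cell cannot be told apart.

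Within Ezh2 KO, Il10 in Th2 was 13.7-fold above unpolarized and 10.8-fold above Th1. Within wild type it was 1.81-fold above unpolarized and 1.30-fold above Th1, all from readings under the low-signal limit. The Il10 genotype difference in Th2 cultures exceeded the mean of the other cultures by 2.99 on the log2 scale, the 39th highest such excess of 11572 genes. There was 1 array per genotype and culture, so these within-genotype values have no test. Ordered by level, the 3 wild type arrays came lowest, and their neighbours differed by less than the gene's residual SD of 1.22 (log2, 2 residual degrees of freedom). The Ezh2 KO unpolarized and Th1 arrays came next, within the same SD of each other, and the steps below and above them were larger than it. For every gene here, the residual SD holds array noise together with any change of the genotype difference between cultures. For Il10 that difference was 3.51, 3.38 and 6.43 on the log2 scale in unpolarized, Th1 and Th2 cultures. A step smaller than the SD therefore does not show that 2 arrays were alike.

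Maf had the second highest mean difference of all 11572 tested genes. Its representative probe set, 1456060_at, read 3721, 5309 and 5302 in Ezh2 KO unpolarized, Th1 and Th2 cultures, against 31.2, 73.1 and 92.2 in wild type. Its Ezh2 KO readings in Th1 and Th2 cultures were nearly equal, and the unpolarized one was lower by 0.51 on the log2 scale, more than the residual SD of 0.38. The difference averaged 6.31 ± 0.54 on the log2 scale (SD, n = 3), 79.3-fold, with an adjusted p of 0.0143. It was 119-fold in unpolarized, 72.6-fold in Th1 and 57.5-fold in Th2 cultures. In Ezh2 KO, Maf was 1.43-fold higher in both Th2 and Th1 than in unpolarized cultures. In wild type those ratios were 2.96 for Th2 and 2.35 for Th1, with the unpolarized reading under the low-signal limit. The step between the Th1 and Th2 arrays was smaller than that SD in each genotype.

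Maf was read by 5 further probe sets. In a separate fit of 21563 probe sets, in which 5.1% were called higher, 5 of the 6 Maf probe sets entered, with adjusted p from 0.0187 to 0.0258. All but 1456060_at entered only through their Ezh2 KO arrays, since their wild type readings were all under the low-signal limit, so they had to differ and their calls are given as a description. 1447849_s_at read 2009, 2174 and 2544 in Ezh2 KO unpolarized, Th1 and Th2 cultures, against 1.42, 50.4 and 17.7 in wild type. 1437473_at read 824, 779 and 1011 in Ezh2 KO, against 2.46, 4.51 and 6.73 in wild type. All wild type values of that probe set were at or below the floor, which makes its difference at least 76.4-fold. 1444073_at read 654, 701 and 897 in Ezh2 KO, against 26.0, 10.6 and 14.0 in wild type, at least 46.4-fold higher. 1435828_at read 544, 615 and 638 in Ezh2 KO, against 12.002, 22.3 and 1.06 in wild type, at least 41.3-fold higher. In all of these probe sets the Ezh2 KO readings lay above the wild type ones. The order of cultures was not shared. The difference was largest in Th2 cultures for 1437473_at (at least 89.2-fold), 1444073_at (64.1-fold) and 1435828_at (at least 56.4-fold). It was largest in unpolarized cultures for 1447849_s_at (at least 177-fold), as for 1456060_at. The culture ratios given for 1456060_at therefore do not hold for every Maf probe set. The last one, 1447945_at, stayed under the low-signal limit on every array, at 48.4, 8.83 and 7.57 in Ezh2 KO and 6.37, 7.58 and 29.9 in wild type, and was not tested. With all 6 averaged, the Maf difference was 5.07 on the log2 scale.

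**Figure D2:**
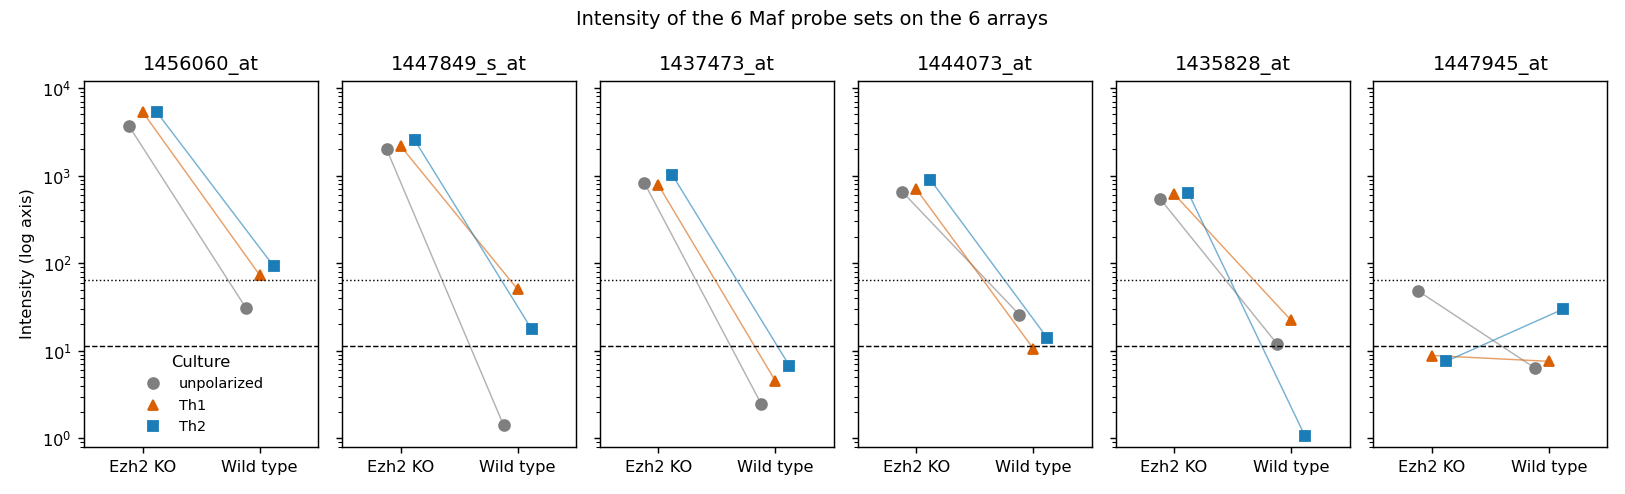
Intensity (log axis) of the 6 probe sets annotated to Maf on the 6 arrays, Ezh2 KO left and wild type right, with the same lines and symbols as in the plot of the 5 genes. In 5 of the 6 probe sets every Ezh2 KO point is at least 544 and every wild type point at most 92.2, and 1447945_at stays under the dotted low-signal limit on all arrays.

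Prdm1, the gene of Blimp-1, was higher in each Ezh2 KO culture than in its wild type counterpart. Its probe set 1420425_at read 427, 677 and 1031 in Ezh2 KO unpolarized, Th1 and Th2 cultures, against 107, 171 and 107 in wild type. The genotype difference averaged 2.41 ± 0.73 on the log2 scale (SD, n = 3), 5.33-fold, with an adjusted p of 0.0331. It was 3.99-fold in unpolarized, 3.96-fold in Th1 and 9.59-fold in Th2 cultures. The Th2 culture thus held the highest Prdm1 reading among the Ezh2 KO arrays, whereas among the wild type arrays the Th1 reading was the highest, by 1.59-fold over Th2. The residual SD was 0.52, and each step in the order of the Ezh2 KO arrays was larger than it (0.67 and 0.61).

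Zbtb32 followed nearly the same course. Its probe set 1432459_a_at read 588, 683 and 829 in Ezh2 KO unpolarized, Th1 and Th2 cultures, against 100.4, 156 and 88.7 in wild type. The genotype difference averaged 2.64 ± 0.55 on the log2 scale (SD, n = 3), 6.22-fold, with an adjusted p of 0.0242. It was 5.86-fold in unpolarized, 4.39-fold in Th1 and 9.34-fold in Th2 cultures. Here too the Th2 reading was highest in Ezh2 KO, while in wild type the Th1 reading was highest, by 1.75-fold over Th2. The Ezh2 KO arrays differed from one to the next by less than the residual SD of 0.39. The other Zbtb32 probe set, 1447330_at, read 28.1, 21.6 and 2.11 in Ezh2 KO and 33.2, 37.2 and 1.29 in wild type, all under the low-signal limit, and was not tested. Averaging it in brought the Zbtb32 difference to 1.15.

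Measured as the root mean square distance of log2 values over the 6 arrays, each gene centred on its own mean, Zbtb32 was the 9th nearest of the 11571 other tested genes to Prdm1 (distance 0.26). Other genes lay nearer to each of them, such as Gzmf to Prdm1 (0.14) and Tmem159 to Zbtb32 (0.10). The promoters of Prdm1 and Zbtb32 are shown because their patterns were alike, with that of Nfil3, which did not pass, set beside them. Il10 and Maf have no entry in the table used. The windows come from RefSeq on build GRCm38.p6 and run from 250 bases before to 50 bases after an annotated start, on the minus strand, with CpG dinucleotides in capitals. The first is Prdm1 at chr10:44458699-44458998, the next 2 are the windows of 2 annotated Zbtb32 starts at chr7:30598860-30599159 and chr7:30592893-30593192, and the last is Nfil3 at chr13:52980990-52981289.
Prdm1: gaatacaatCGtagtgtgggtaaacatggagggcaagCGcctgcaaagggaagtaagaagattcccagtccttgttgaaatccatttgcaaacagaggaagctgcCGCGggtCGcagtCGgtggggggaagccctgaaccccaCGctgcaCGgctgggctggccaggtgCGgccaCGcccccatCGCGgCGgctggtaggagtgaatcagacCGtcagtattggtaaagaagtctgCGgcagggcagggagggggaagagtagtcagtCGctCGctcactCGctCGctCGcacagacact
Zbtb32 upstream start: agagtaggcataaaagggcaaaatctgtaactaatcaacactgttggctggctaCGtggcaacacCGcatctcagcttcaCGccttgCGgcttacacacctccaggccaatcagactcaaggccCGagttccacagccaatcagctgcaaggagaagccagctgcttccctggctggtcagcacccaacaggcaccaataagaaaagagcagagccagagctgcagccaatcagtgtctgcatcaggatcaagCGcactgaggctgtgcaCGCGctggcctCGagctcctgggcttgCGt
Zbtb32 downstream start: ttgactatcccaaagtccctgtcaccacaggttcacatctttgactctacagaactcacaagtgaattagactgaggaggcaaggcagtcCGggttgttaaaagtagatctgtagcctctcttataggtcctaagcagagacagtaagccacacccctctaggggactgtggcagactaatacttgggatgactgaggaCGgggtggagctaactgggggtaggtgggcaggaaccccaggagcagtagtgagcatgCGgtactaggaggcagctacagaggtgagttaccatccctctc
Nfil3: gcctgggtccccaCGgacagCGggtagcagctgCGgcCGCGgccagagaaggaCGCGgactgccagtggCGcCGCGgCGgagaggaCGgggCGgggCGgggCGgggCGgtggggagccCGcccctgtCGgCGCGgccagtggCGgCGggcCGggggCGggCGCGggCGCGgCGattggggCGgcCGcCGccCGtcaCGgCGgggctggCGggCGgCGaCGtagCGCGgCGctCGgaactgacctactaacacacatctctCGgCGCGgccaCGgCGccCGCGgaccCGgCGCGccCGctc
The Nfil3 window holds 54 CpG dinucleotides, more than 99.7% of the 32851 promoter windows in the table, whose median is 7. The Prdm1 window holds 20, and the Zbtb32 windows hold 10 and 3. Both strands were searched for the Maf motifs TGCTGA and GCTGAC, the core GAAAG of the Blimp-1 motif, the Nfil3 palindrome TTACGTAA and the AP-1 site TGACTCA. The upstream Zbtb32 window holds GTCAGCA, in which 1 match each to both Maf motifs overlap on the opposite strand, and such matches occur in 19.5% and 15.7% of all windows. The other 3 windows hold no Maf motif, and none of the 4 windows holds GAAAG (57.3% of all windows do), TTACGTAA (0.119%) or TGACTCA (5.2%). These are letters in a window and were not set against binding data.

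Nfil3 read above the low-signal limit on all 6 arrays and its groups overlapped. Probe set 1418932_at read 1983, 2253 and 3736 in Ezh2 KO unpolarized, Th1 and Th2 cultures, against 1093, 2044 and 2281 in wild type. The genotype difference averaged 0.57 ± 0.38 on the log2 scale (SD, n = 3), 1.49-fold, with an adjusted p of 0.109. It was 1.81-fold in unpolarized, 1.10-fold in Th1 and 1.64-fold in Th2 cultures. In both genotypes the order of cultures was unpolarized, Th1 and Th2 from low to high. The Ezh2 KO Th2 culture was 1.88-fold above Ezh2 KO unpolarized, and the wild type Th2 culture 2.09-fold above its own unpolarized culture. From the Ezh2 KO unpolarized array to the wild type Th2 array, neighbours in the order differed by less than the residual SD of 0.27.

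**Figure D3:**
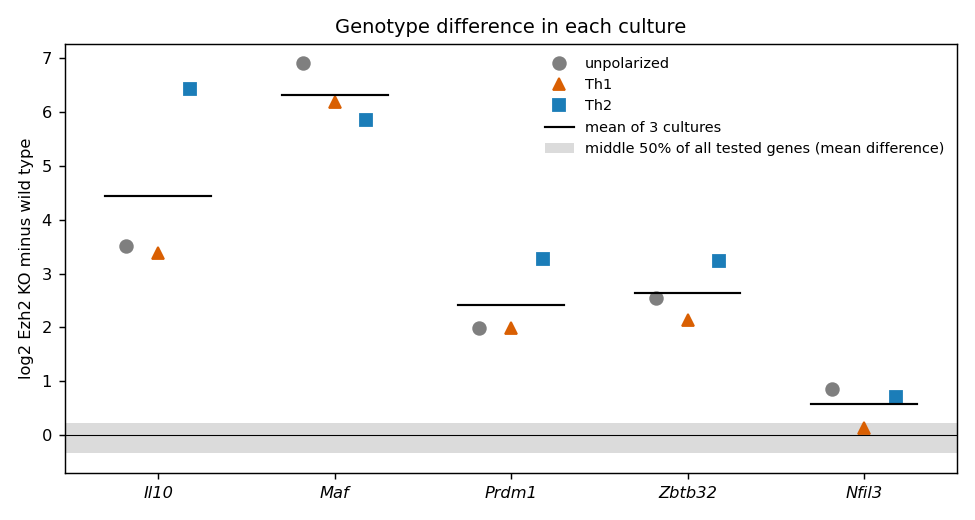
Difference between Ezh2 KO and wild type on the log2 scale for each gene in each culture (symbols) and the mean of the 3 cultures (bar). The grey band holds the middle 50% of the mean differences of all 11572 tested genes, from -0.34 to 0.22. Il10 in Th2 cultures (6.43) lies about 3 log2 units above Il10 in the other cultures, and Maf lies near 6 in each.

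That fit also compared the cultures, keeping genotype as a term. In Th2 against unpolarized cultures, the log2 differences were 2.31 ± 0.91 for Il10, 1.04 ± 0.30 for Maf, 0.99 ± 0.22 for Nfil3, 0.64 ± 0.39 for Prdm1 and 0.16 ± 0.30 for Zbtb32 (SE from limma). Their adjusted p ran from 0.628 for Nfil3 to 0.96 for Zbtb32, and 0% of the 11572 genes passed in limma, against 6.7% (775 genes) at an unadjusted p under 0.05. In Th1 against unpolarized cultures, the differences ran from 0.41 ± 0.91 for Il10 to 0.87 ± 0.30 for Maf, and again 0% of all genes passed, against 5.46% (632 genes) unadjusted. Th2 against Th1 gave 1.90 ± 0.91 for Il10 and between -0.27 and 0.44 for the other 4, with 0% of all genes past the threshold and 7.59% (878 genes) unadjusted. Counted without a test, 0 of the 5 genes were at least 2-fold higher in both genotypes in Th2 against unpolarized (0.674% of all tested genes were), in Th1 against unpolarized (0.527%) or in Th2 against Th1 (0.717%). An effect of polarization on these 5 genes was therefore not shown by a test, and the same spread of 2 residual degrees of freedom limits all 3 comparisons. The Maf culture differences rest on its representative probe set. With all Maf probe sets averaged, they were 0.20 in Th2 and 0.15 in Th1 against unpolarized cultures.

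The other listed activators of Il10 in T cells moved unevenly. Of 16 tested activators besides Maf, Prdm1 and Nfil3, 4 rose and 0 fell in Ezh2 KO, with a median of 0.40 on the log2 scale against -0.07 for all tested genes. Among all tested genes 8.35% rose and 7.98% fell, and the counts of this and the following lists stand beside those shares. The aryl hydrocarbon receptor Ahr, a partner of Maf in Tr1 cells, read 935, 916 and 1241 in Ezh2 KO unpolarized, Th1 and Th2 cultures, against 45.2, 33.3 and 58.2 in wild type, a difference of 4.52 ± 0.23 (adjusted p = 0.0143). All wild type Ahr readings were under the low-signal limit, so Ahr entered the test only through its Ezh2 KO arrays, and with all its probe sets averaged the difference was 2.99. The T-box factor Eomes rose by 2.48 ± 0.27, the AP-1 partner Batf by 1.07 ± 0.29 and Jun, an AP-1 subunit, by 0.95 ± 0.13. Eomes is also an NK cell marker, and the other tested NK markers, Gzma and Klrk1, rose too. Gzma entered the test only through its Ezh2 KO arrays, and the Klrk1 call was lost with no floor, without the culture block and when every probe set was fitted on its own. The summed NK marker intensity was 14301 to 40106 in Ezh2 KO and 282 to 561 in wild type, mostly from Gzma, while Ncr1, Klra8 and Tyrobp were below the low-signal limit on every array. The part of NK cells in these values was not tested. Those that did not pass included Gata3, the Th2 lineage factor, at 0.84 ± 0.36, the Ikaros family factor Ikzf3 at 0.85 ± 0.55, and Irf4, which partners Batf, at 0.23 ± 0.62. Irf4 read 957, 944 and 1968 in Ezh2 KO and 782, 1268 and 1115 in wild type, so that its Ezh2 KO Th2 reading was the highest of the 6. Stat3 gave 0.15 ± 0.18 and Stat6, the transducer of IL-4, gave -0.62 ± 0.29.

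Of 5 listed repressors, 1 rose and 2 fell. Bhlhe40, a helix-loop-helix factor that holds Il10 down in T cells, rose by 1.22 ± 0.25 on the log2 scale (adjusted p = 0.0274), with readings of 4982, 5682 and 4908 in Ezh2 KO unpolarized, Th1 and Th2 cultures against 1825, 2941 and 2068 in wild type. Bach2, a repressor of Prdm1, fell by 0.92 ± 0.34, with 2108, 1863 and 1282 in Ezh2 KO against 3975, 2791 and 3097 in wild type. Its lowest reading was that of the Ezh2 KO Th2 array, the one with the highest Prdm1. The chromatin remodelling ATPase Smarca4, listed as a repressor though its role at Il10 is not settled, fell by 0.50 ± 0.10. The Bach2 and Smarca4 calls were lost with median centring and when every probe set was fitted on its own, and that of Smarca4 also with all probe sets of a gene averaged. Bcl6, the factor that opposes Blimp-1, read from 35.9 to 100.3 over all arrays and did not pass.

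**Figure D4:**
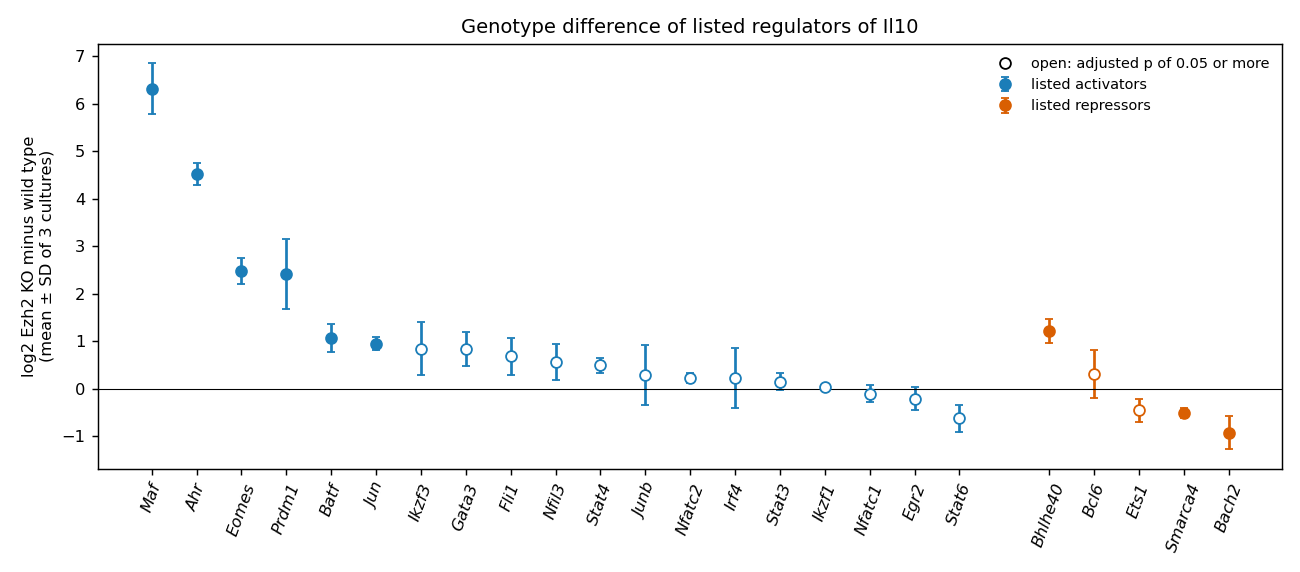
Mean difference between Ezh2 KO and wild type on the log2 scale, with the SD over the 3 cultures as error bars, for 19 listed activators and 5 listed repressors of Il10. Smarca4 is plotted with the repressors, though its role at Il10 is not settled. Filled points passed an adjusted p of 0.05. Maf and Ahr stand highest, and the points below 0 that passed are Smarca4 and Bach2.

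In the IL-10 cytokine family, 3 of 6 listed genes had a named probe set. Il24, which lies near Il10 in the same gene cluster, read 378, 405 and 2611 in Ezh2 KO unpolarized, Th1 and Th2 cultures, against 82.2, 55.3 and 183 in wild type. Its genotype difference was 2.97 ± 0.82 on the log2 scale (adjusted p = 0.0299), a call lost without the culture block. Like Il10, Il24 was highest in Th2 cultures, 6.90-fold above unpolarized in Ezh2 KO and 2.23-fold in wild type. Il20, from the same cluster, read from 25.2 to 97.8 over the 6 arrays and did not pass (-0.68 ± 1.16). The IL-10 receptor chains did not pass either, Il10ra at 0.48 ± 0.26 and Il10rb at 0.10 ± 0.15. Of 7 tested genes of the receptor's signalling and response, 0 passed, among them Jak1 at 0.01 ± 0.05 and Tyk2 at 0.02 ± 0.07. Socs3, a STAT3-induced inhibitor of cytokine signalling, gave 0.77 ± 0.81, with its highest reading of 5478 in the Ezh2 KO Th2 culture against 1746 in wild type Th2.

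Genes of the signals that induce Il10 were mixed, with 4 of 13 tested higher and 1 lower. The IL-12 receptor chains rose by 2.08 ± 0.28 (Il12rb1) and 2.10 ± 0.78 (Il12rb2), Il4 by 2.66 ± 1.09 and Il21r by 0.67 ± 0.22. All wild type readings of Il12rb2 were under the low-signal limit, so it entered the test only through its Ezh2 KO arrays, and with the floor at the 40th percentile its difference was 1.55. Il4 read 230, 204 and 601 in Ezh2 KO unpolarized, Th1 and Th2 cultures, against 24.1, 20.5 and 227 in wild type. Its groups thus overlapped, and 2 wild type readings were under the low-signal limit. Without the Th2 pair the Il4 difference was 3.28. Il6st, which encodes the shared gp130 chain of the IL-6 and IL-27 receptors, fell by 1.24 ± 0.19 on the log2 scale, with 164, 172 and 166 in Ezh2 KO against 437, 351 and 399 in wild type. Il6ra gave -2.26 ± 1.51 and did not pass. Il4 lost its call when every probe set was fitted on its own and without the culture block, and Il21r with median centring and when every probe set was fitted on its own. Of 3 tested Maf targets besides Il10, 1 rose, which was Il4. Icos, a costimulatory receptor, gave 0.53 ± 0.45 and the integrin chain Itgb7 0.16 ± 0.20, and Il21 was too dim to be tested.

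Targets that Blimp-1 is known to repress gave 0 higher and 2 lower of 7 tested, with a median of 0.23. Ccr7, the receptor that guides T cells to lymph nodes, fell by 1.00 ± 0.17 on the log2 scale, with 2000, 1504 and 1731 in Ezh2 KO unpolarized, Th1 and Th2 cultures against 4193, 3278 and 3036 in wild type. Bach2 was the other gene that fell. Myc gave 0.23 ± 0.34, Id3, an inhibitor of helix-loop-helix factors, -0.63 ± 0.66, and the MHC class II regulator Ciita 0.61 ± 0.29, none past the threshold. Il2, too dim to be tested, read 1.23, 2.18 and 6.44 in Ezh2 KO against 51.6, 61.0 and 46.0 in wild type.

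Relatives of the 4 factors were set beside them. Among all tested genes 8.35% were higher and 7.98% lower, so a count of 0 in a small family tells little. Besides Prdm1, 0 of 7 tested Prdm family genes passed, with differences from -0.46 ± 0.12 (Prdm2) to 0.30 ± 1.52 (Prdm9). Besides Zbtb32, 0 of 11 tested Zbtb factors passed, and the largest in size was Patz1 at -0.50 ± 0.20. Among small Maf and Bach proteins, which dimerize through related leucine zippers, Mafg rose by 0.44 ± 0.06 and Bach2 fell, while Mafk (0.50 ± 0.28), Bach1 (0.20 ± 0.06) and Maff (-0.19 ± 0.51) did not pass. Of 9 tested partners of Nfil3 among the PAR leucine zipper and clock genes, 0 rose and 2 fell. Dbp, an activator that competes with Nfil3 for the same DNA sites, fell by 2.11 ± 0.37 (adjusted p = 0.0217), with 410.2, 283 and 296 in Ezh2 KO unpolarized, Th1 and Th2 cultures against 1350, 1263 and 1626 in wild type. Cry1, a clock repressor, fell by 0.77 ± 0.29, a call lost with quantile normalization, median centring, no floor and when every probe set was fitted on its own. The Mafg call was lost with median centring, with all probe sets of a gene averaged and when every probe set was fitted on its own.

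Surface molecules linked to Tr1 cells gave 1 higher gene of 6 tested. Havcr2, which encodes the inhibitory receptor TIM-3, read 172, 217 and 472 in Ezh2 KO unpolarized, Th1 and Th2 cultures, against 5.01, 19.2 and 16.8 in wild type, and rose by 4.08 ± 0.67 on the log2 scale, or by 2.80 with the floor at the 40th percentile. No wild type reading reached the low-signal limit and 1 was at the floor, so Havcr2 entered the test only through its Ezh2 KO arrays. Itga2 (CD49b) gave at least 1.36 ± 0.95, Cd226 0.47 ± 0.60 and Ctla4 -0.65 ± 0.69, none past the threshold. Lag3, which with CD49b defines Tr1 cells, read from 8.92 to 18.4 on the 6 arrays, under the low-signal limit throughout. Foxp3, the factor of regulatory T cells, read 51.4, 45.9 and 34.9 in Ezh2 KO unpolarized, Th1 and Th2 cultures, against 69.3, 54.0 and 56.4 in wild type, and did not pass.

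The genes with patterns nearest to each member, by root mean square distance over the 6 arrays, were as follows. For Il10 they were the nuclear receptor Pparg (distance 0.69 log2 units), the chemokine receptor Ccr1 (0.71) and the protease Cpa3 (0.74), and Il24 ranked 12th of 11571 (0.89). For Maf they were Igsf5 (0.58), the granzyme Gzmd (0.65) and Gcnt2 (0.66). Nearest to Prdm1 were the granzyme Gzmf (0.14), the ETS factor Etv5 (0.16) and Dcun1d3 (0.17). Zbtb32 was nearest to Tmem159 (0.10), Tmem35a (0.10) and the kinase Sgk1 (0.15), and Nfil3 to Evi5 (0.13), Marveld2 (0.14) and Pdia5 (0.14). Among the members themselves, Il10 and Maf lay 1.48 apart and Il10 and Prdm1 1.39.

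Genes near the members along the chromosomes were set beside them, taking the 3 nearest tested genes on each side in RefSeq order. Annotated genes without a test were passed over, so these lay from 1 to 30 annotated genes away. Wwox was 7 and Mon1b 18 from Maf, Crybg1 10 from Prdm1 and Hrh2 30 from Nfil3. Of these 30 neighbours, 6 were higher, 3 lower and the median was 0.13 on the log2 scale. Among all tested genes 8.35% were higher and 7.98% lower, with a median of -0.07. Beside Il10, Il24 rose, and so did the kinase Mapkapk2, by 0.43 ± 0.04, while Fcmr gave 0.01 ± 0.12. Around Maf no neighbour was higher and 2 fell, Wwox by 0.54 ± 0.14 and Mon1b by 0.67 ± 0.16. Around Prdm1, Crybg1 rose by 0.98 ± 0.19 and Atg5, an autophagy gene, by 0.45 ± 0.08. Around Zbtb32 only the splicing factor U2af1l4 passed, down by 0.43 ± 0.06. Around Nfil3 the histamine receptor Hrh2 rose by 1.38 ± 0.36 and Auh by 0.47 ± 0.10. The calls of Mapkapk2, Wwox, Mon1b, Atg5, U2af1l4 and Auh were each lost under at least 2 of the other settings, median centring among them.

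**Figure D5:**
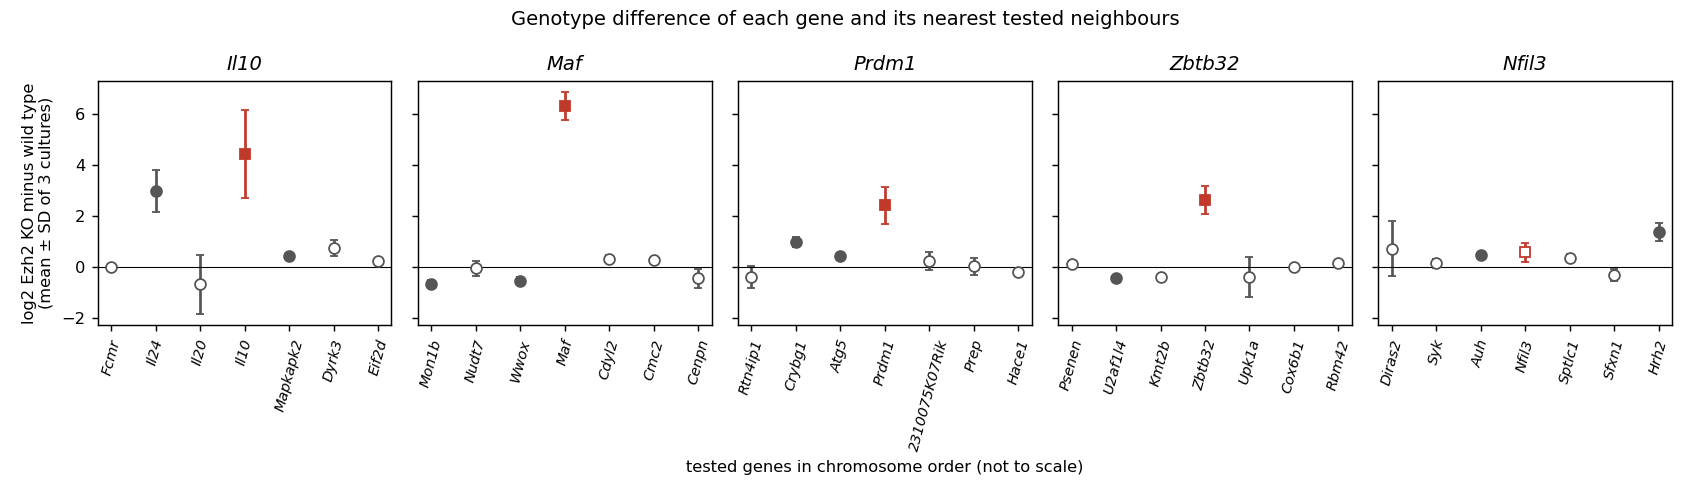
Mean difference between Ezh2 KO and wild type on the log2 scale (SD over the 3 cultures as error bars) for each gene, as a red square, and the 3 nearest tested genes on each side, as grey circles in chromosome order and not to scale. Filled symbols passed an adjusted p of 0.05. Il10, Maf, Prdm1 and Zbtb32 stand above all their plotted neighbours, and the highest of these, Il24 near Il10, lies at 2.97.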

How the data were processed

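Each of the 6 cultures gave total RNA for 1 Affymetrix array, prepared with a GeneChip 3' IVT kit per the labels' protocols. The authors deposited 1 intensity per probe set, unlogged. Per the submitters' processing notes the software was Affymetrix Expression Console, and how it summarized probes is not stated in the labels. After trimming 2% at each end every array had the same mean, so a common scaling preceded deposit.

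The annotation gave 1 gene symbol to 34945 probe sets, several to 932 and none to 9160, beside 64 controls. RefSeq (GRCm38.p6) held 34741 of them and served for names and gene order. Intensities below the 20th percentile (11.3) were set to it, then log2 was taken, which shrinks differences of dim genes. Each of 18193 genes was read from its probe set of highest mean, and 11572 whose brightest array was at or above the overall median (64.4) were tested. limma 3.58.1 (R 4.3.3) fitted genotype plus culture, leaving 2 residual degrees of freedom, and the script was tested on simulated data. Distances and promoter counts used pandas 2.3.3.

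The members and lists were chosen with earlier results of these data known. Named genes were the members, Ezh2, up to 4 of each list by size of difference, those that passed where stated, the 3 nearest patterns and the 3 nearest tested genes on each side. Other list genes named were chosen after their values were seen. Alternatives changed the scaling, filter, floor, probe set rule, variance trend or block, or left out a culture.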

Additional observations from a re-analysis of the deposited data

Results flagged for a closer look

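Several differences had opposite signs in the groups compared. Each rests on 1 array per group, so none of these differences was tested. Prdm1 in Th2 less Th1 was 0.61 on the log2 scale in Ezh2 KO and -0.67 in wild type, a gap of 1.28. For Zbtb32 the same comparison gave 0.28 in Ezh2 KO and -0.81 in wild type, a gap of 1.09, and Th2 less unpolarized gave 0.49 in Ezh2 KO and -0.18 in wild type, a gap of 0.67. Maf in Th2 less Th1 was near 0 in Ezh2 KO and 0.33 in wild type, a gap of -0.34 that is smaller than its residual SD. The dim Maf probe set 1447945_at was higher in Ezh2 KO in unpolarized cultures (2.09) and lower in Th2 cultures (-1.40), a gap of 3.49, with every reading dimmer than the low-signal limit.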

How the results depend on the processing

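The genotype differences of Il10, Maf, Prdm1, Zbtb32 and Nfil3 kept their direction under all 13 alternatives, but the calls did not all hold. Without a filter on low values 0 genes passed (4711 at an unadjusted p under 0.05), and the log2 differences of Il10 (4.44), Maf (6.31), Prdm1 (2.41) and Zbtb32 (2.64) no longer did, with adjusted p from 0.0769 to 0.112. With 1 culture left out, 0 genes passed (2995 to 3266 unadjusted). Il10 then ran from 3.44 to 4.97 (adjusted p 0.0672 to 0.125), Maf from 6.01 to 6.54 (0.0672 to 0.0987), Prdm1 from 1.99 to 2.63 (0.0672 to 0.113) and Zbtb32 from 2.34 to 2.89 (0.0672 to 0.106). These settings test more dim genes or fewer arrays. Nfil3, at 0.57, passed when genes were filtered on their mean at the 60th percentile (adjusted p 0.0427, 3228 genes in all, 1349 higher and 1879 lower) and with an intensity trend in limma (adjusted p 0.0122, 3983 genes in all, 1777 higher and 2206 lower). Over all 13 alternatives its adjusted p ran from 0.0122 to 0.30. Without the culture block 2838 genes passed. With the trend, Th2 against unpolarized gave 5 genes and Th2 against Th1 gave 16, none of them a member, against 0 otherwise. Zbtb32 in Th2 against unpolarized changed sign to -0.64 with all probe sets averaged. That average takes in 1447330_at, which was under the low-signal limit on every array. It read 28.1 in Ezh2 KO and 33.2 in wild type unpolarized cultures. In Th2 cultures it read 2.11 in Ezh2 KO and 1.29 in wild type, both below the floor. The genotype comparison was already paired within culture, and the labels carry no replicate numbers for any further block. All wild type readings of Il10 and 1 of 3 of Maf were under the low-signal limit.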
